A study of Mus musculus with 9 samples.

Results

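Lymphomas were divided by their level of surrogate light chain mRNA. For each of the 9 lymphomas of the series, the log2 intensities of Vpreb1 and Igll1 were averaged into a score, and the members were chosen by this measured score. The 4 lymphomas with the highest score (upper-score group) were compared with the 4 with the lowest (lower-score group), and the middle one was left out. All 9 tumours came from mice that carry Eμ-Myc, in which the immunoglobulin heavy chain enhancer Eμ drives the oncogene Myc in B cells, on a strain background of 94% C57BL/6. In 4 of them (Eμ-Myc, called M1 to M4 here by replicate number) this was the only transgene, and 5 (Eμ-Myc;Eµ-TTP-1, called MT1 to MT5) also carried a transgene for TTP, an RNA-binding protein that promotes mRNA decay. RNA of each lymphoma was hybridised to 1 Affymetrix mouse array. The labels call the tumours biological replicates; age, sex and tumour site are not given in the sources used here.

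Vpreb1, Vpreb2 and Igll1 (λ5) encode the surrogate light chain. It pairs with the immunoglobulin μ heavy chain in precursor B cells to form the pre-B cell receptor, which tests a newly made heavy chain and drives division before the light chain genes are rearranged. Cells that go on to make a conventional light chain switch the surrogate genes off, so that these genes mark the precursor stage, and Eμ-Myc tumours are known to arise from both precursor and later B cells.

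The 3 genes lie on chromosome 16, and their upstream sequences are shown because these genes define the groups. The 250 bases before each start are given 5′ to 3′ on the strand of the gene, from RefSeq (GRCm38.p6). They span chr16:16869256-16869505 for Vpreb1 (minus strand), chr16:16863986-16864235 for Igll1 (minus strand) and chr16:17980315-17980564 for Vpreb2 (plus strand). Capitals mark matches, on either strand, to CAGCTG, the E box letters bound by E proteins, and to TGGGAA, the core letters of Ikaros sites.
Vpreb1: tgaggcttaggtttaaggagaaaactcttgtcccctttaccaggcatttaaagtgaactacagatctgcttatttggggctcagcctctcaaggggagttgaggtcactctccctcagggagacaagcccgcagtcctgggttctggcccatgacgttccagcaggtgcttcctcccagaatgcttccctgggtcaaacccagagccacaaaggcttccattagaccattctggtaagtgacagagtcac
Igll1: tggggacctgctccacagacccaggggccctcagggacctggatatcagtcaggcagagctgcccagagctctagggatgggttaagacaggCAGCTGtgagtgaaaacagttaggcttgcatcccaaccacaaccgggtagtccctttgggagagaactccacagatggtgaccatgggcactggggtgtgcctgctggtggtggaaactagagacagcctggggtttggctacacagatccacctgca
Vpreb2: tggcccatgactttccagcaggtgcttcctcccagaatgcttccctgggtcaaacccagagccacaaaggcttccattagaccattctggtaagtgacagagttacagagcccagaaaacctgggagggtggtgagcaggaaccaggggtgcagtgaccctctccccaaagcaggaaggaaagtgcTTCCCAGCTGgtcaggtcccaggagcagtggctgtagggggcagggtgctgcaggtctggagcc
CAGCTG stood once in the Igll1 and once in the Vpreb2 sequence, and in 13% of the 32851 promoters of the table. TGGGAA was found once in Vpreb2, where it overlaps the E box letters by a few bases, and in 21.6% of all promoters. The palindromic motif of EBF1 was in none of the 3 and in 0.779% of all promoters. Of the 12 genes named as leading among those higher in the upper-score group, 8 had a promoter in the table, and 1 of the 8 held CAGCTG, 1 the EBF1 motif and 0 TGGGAA. Of the 12 leading lower genes 10 had one, with CAGCTG in 0, the EBF1 motif in 0 and TGGGAA in 2.

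The scores that chose the groups are a description and were not tested. Values are log2 intensities, and those of single lymphomas are given in the order of rising score, which is MT1, M1, MT5 and M2 for the lower-score group, MT3 for the middle, and M3, M4, MT4 and MT2 for the upper-score group. The score was 4.12, 4.18, 4.23 and 4.31 in the lower-score group, 4.33 in MT3 and 4.94, 10.34, 12.22 and 15.07 in the upper-score group. Vpreb1 read 2.48, 2.51, 3.13 and 2.48, then 3.36 in MT3, and then 3.82, 9.69, 12.33 and 14.79. Igll1 read 5.76, 5.84, 5.33 and 6.14, then 5.31 in MT3, and then 6.06, 11.00, 12.10 and 15.34. Surrogate light chain mRNA was thus clearly present in 3 lymphomas, M4, MT4 and MT2, and M3 was at the level of the lower-score group. The score of M3, the last one inside the upper-score group, lay nearer to that of MT3 just outside it than to that of M4, and by Igll1 alone M2 would have taken its place. A probe set shared by Vpreb1 and Vpreb2, which the score did not use, had the same 3 lymphomas on top, with 4.09 to 4.33 in the other 6 lymphomas and 8.20 in M4, 11.71 in MT4 and 15.13 in MT2. The second Igll1 probe set lay between 2.19 and 3.19 in all 9. Counts over all genes, and list medians that M3 moved by over 1.5 times or turned in sign, are therefore given with and without M3.

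**Figure D1:**
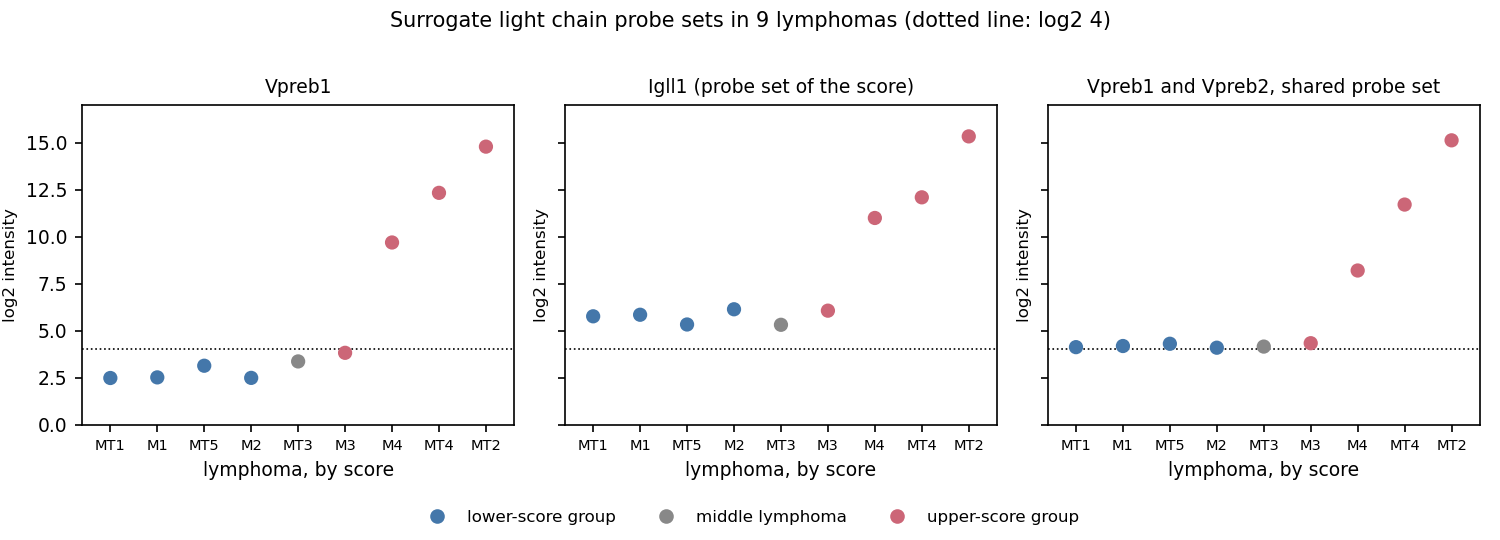
Log2 intensity (vertical axis) of Vpreb1, Igll1 and the probe set shared by Vpreb1 and Vpreb2 in each of the 9 lymphomas (horizontal axis, by rising score); each point is 1 array, and the dotted line marks log2 4. M4, MT4 and MT2 lie at 8.20 or above in every panel, and M3 lies beside the 4 lower-score lymphomas and MT3.

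The median intensity over the 45037 probe sets lay between 12.2 and 13.4 on the 9 arrays, and log2 values of any 2 arrays correlated across probe sets at 0.959 to 0.990. Precision is limited by how few arrays there are. Both genotypes supplied 2 lymphomas to each group (Fisher's exact test, p = 1, two-sided). In bulk tumours, fewer cells of a type and less RNA per cell cannot be told apart. The groups were drawn from measured values of the same arrays, so a limma p here describes how closely a gene follows the split over 8 tumours. Among 10171 genes, limma called 1 at a Benjamini-Hochberg adjusted p of under 0.05. It was Insm1, higher in the upper-score group (0.00983% of those tested), and 0 genes were lower (0%). The gene after it had a limma adjusted p of 0.228. Without adjustment, 434 genes (4.27%) were higher and 187 (1.84%) lower at p under 0.05, and the median difference over all genes tested was 0.02 (upper minus lower, as throughout). Values did not overlap between the groups for 222 higher genes (2.18%) and 129 lower genes (1.27%). That excess of higher genes depended on the scaling, since after quantile normalisation the counts were 180 higher and 256 lower, and after median centring 154 and 272. Of the 222 higher genes, 9 had the whole lower-score group at background. Of the 129 lower genes, 1 had the whole upper-score group there. Such genes entered the test through the other group, with or without MT3. Without M3, 0 genes had an adjusted p under 0.05 (lowest limma adjusted p = 0.0974, with 781 genes at an unadjusted p under 0.05), and the values of 575 higher (5.65%) and 364 lower genes (3.58%) did not overlap.

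Insm1, a zinc finger transcription factor known from neuroendocrine cells, was the single gene that passed. It read 2.39, 2.56, 2.36 and 2.38 in the lower-score group, 4.10 in MT3, and 7.64, 8.23, 9.78 and 7.49 in the upper-score group. All 4 upper-score lymphomas, M3 included, stood far above the others, whose values were at background except for MT3 at its edge. The log2 difference was 5.86 (SE 0.47, limma adjusted p = 0.0241), from 2.42 ± 0.09 (SD, n = 4) to 8.29 ± 1.04 (SD, n = 4). Because the lower-score values lie under the filter limit of log2 4, Insm1 entered the test through the upper-score group and MT3, and the size of the fold is poorly determined. A second Insm1 probe set read 4.18, 4.17, 3.75 and 3.73, then 3.94 in MT3, and then 7.08, 7.16, 7.41 and 4.77, again without overlap but with MT2 near the rest. Without M3 the difference was 6.07 (limma adjusted p = 0.0974). Leaving out any 1 of MT1, M1, MT5, M2, M4 or MT2 also took the adjusted p over 0.05, between 0.0581 and 0.198, and leaving out MT4 took it to 5.98e-04.

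The other 11 leading higher genes are those with the next smallest p among genes whose values did not overlap. Ccn2, a matricellular growth factor, read 6.38, 6.19, 8.07 and 6.15, then 6.41 in MT3, and then 9.67, 9.86, 10.61 and 10.53. MT5 was the highest of the lower-score lymphomas and still below every upper-score one. Its log2 difference was 3.47 (SE 0.47, limma adjusted p = 0.228). The secreted Wnt antagonists Sfrp1 and Sfrp2 had differences of 3.09 (SE 0.43) and 5.51 (SE 0.77). Sfrp2 was at background in the whole lower-score group (2.46 to 3.55) and in MT3 (2.46). It read 6.54, 10.30, 7.74 and 9.18 in the upper-score group. Sfrp2 thus entered the test only through the upper-score group, and its fold is poorly determined. Lox, the enzyme that cross-links collagen, differed by 3.11 (SE 0.54), and its upper-score values of 8.04, 10.29, 9.17 and 10.36 were lowest in M3. The secreted protein genes Serpinf1 (2.34, SE 0.33) and Gas6 (2.11, SE 0.36), the latter a ligand of the receptor Axl, also did not overlap. A second Serpinf1 probe set, which did not pass the filter, did overlap. It read 2.57 to 3.49 in the lower-score group, 2.55 in M3 and 5.05 to 5.55 in M4, MT4 and MT2. Fcer1g, the signalling chain of several Fc receptors of myeloid cells, read 10.09 to 10.37 in the lower-score group, 8.94 in MT3 and 10.92 to 11.33 in the upper-score group. Dsel, a dermatan sulfate epimerase homologue, was at 3.24 to 3.52 in the lower-score group but at 6.28 in MT3, inside the upper-score range of 5.31 to 7.69. Dsel entered the test through the upper-score group and MT3. Vav3, a signalling protein that acts downstream of antigen receptors, read 3.77, 3.92, 4.57 and 4.14, then 3.88 in MT3, and then 6.88, 5.76, 7.12 and 6.29. Vav3 and Sfrp1 were each over log2 4 in only 2 lower-score lymphomas, so both needed their upper-score values to enter the test. The mitochondrial ATP synthase inhibitor gene Atpif1 (0.86, SE 0.15) and Pon3 (2.39, SE 0.43), a paraoxonase, complete the list. The limma adjusted p of these 11 ran from 0.228 to 0.443, so none passed. MT3 lay within or below the range of the lower-score group for 9 of the 12 leading higher genes and within the upper-score range for 1.

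**Figure D2:**
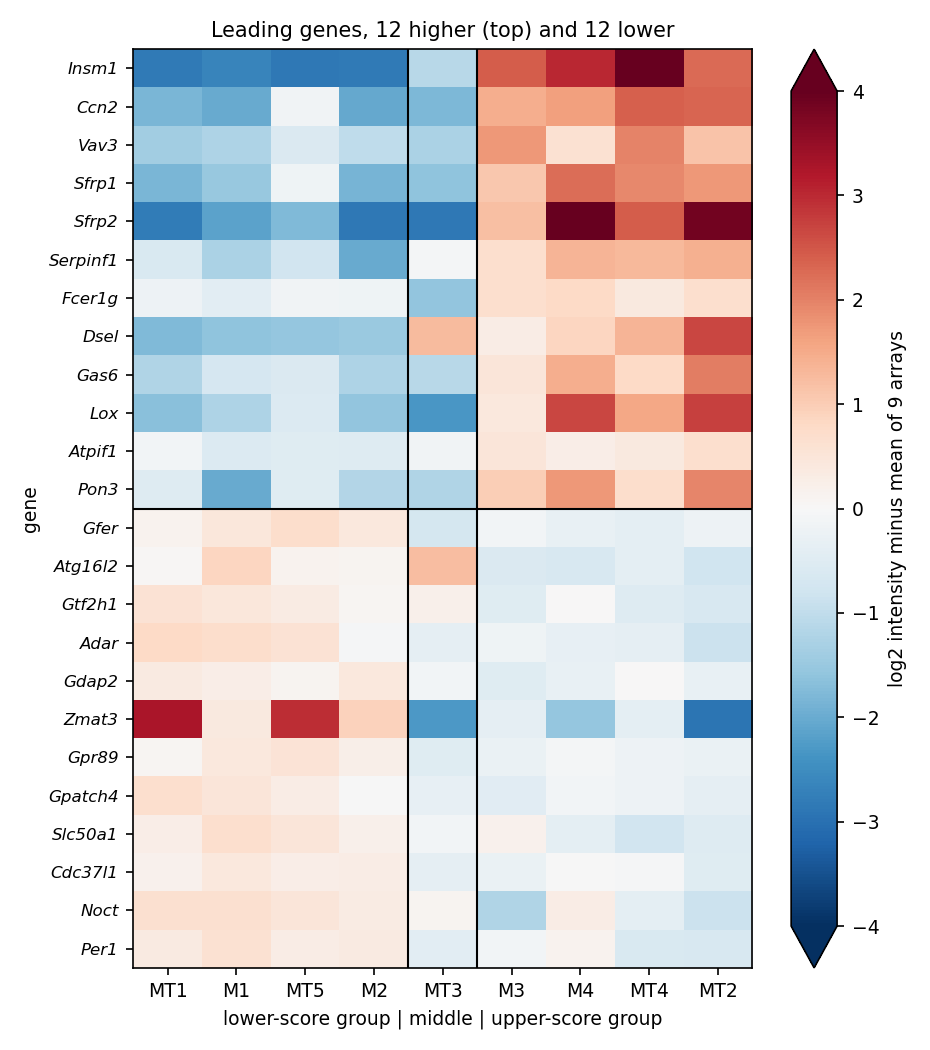
Log2 intensity minus the gene's mean over the 9 arrays (colour) for the 12 leading higher and 12 leading lower genes (rows) in each lymphoma (columns, by rising score; vertical lines set off the middle lymphoma MT3). The upper rows differ by 0.86 to 5.86 between the groups and the lower rows, apart from Zmat3, by about 1 or less, and MT3 resembles the lower-score group in most of the upper rows.

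Markers of macrophages and stroma had higher means in the upper-score group, though none passed the test. Of 16 tested macrophage and dendritic cell markers 15 were higher in the upper-score group, with a median difference of 0.66 (0.45 without M3) beside 0.02 over all genes. Fcgr3 and Axl, 2 of the 16, did not overlap, beside 2.18% of all genes. The mean of these 16 was 9.88 to 10.09 in the lower-score group, 9.33 in MT3 and 10.50 to 11.14 in the upper-score group, so the groups did not overlap. Fcgr3, an Fc receptor of myeloid cells, read 9.68, 9.57, 8.94 and 9.06, then 8.92 in MT3, and then 11.93, 10.69, 10.71 and 10.54 (difference 1.66, SE 0.34). Axl, the receptor of Gas6, read 9.02 to 9.79 in the lower-score group and 10.10 to 10.53 in the upper-score group. Mrc1, the mannose receptor of tissue macrophages, had the largest difference of the list (2.32, SE 1.01) but overlapped, with 10.26 in M1. The plasmacytoid and type 1 dendritic cell markers Siglech and Xcr1 were at background in all 9. Over all 22 markers on the array, intensities summed to 43884 to 76296 in the lower-score group and 54146 to 105189 in the upper-score group.

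Of 17 tested stroma and endothelium markers 16 were higher, with a median difference of 0.80 (0.66 without M3). Col1a2 and Fn1, 2 of the 17, did not overlap, beside 2.18% of all genes. The mean of the list was 8.08, 9.01, 9.74 and 8.64 in the lower-score group, 8.57 in MT3 and 9.50, 10.54, 9.76 and 10.13 in the upper-score group, where M3 lay under MT5. The collagen gene Col1a2 read 9.71, 11.61, 11.76 and 10.53, then 9.84 in MT3, and then 11.89, 13.80, 13.23 and 13.65. Fn1, fibronectin, read 7.72 to 10.11 in the lower-score group and 11.20 to 11.65 in the upper-score group. These were fibroblast matrix genes; the endothelial genes of the list differed less, with Cdh5 at 0.36 (SE 0.63), Kdr at 0.37 (SE 0.55) and Pecam1 at -0.54 (SE 0.34). Summed intensities of the 18 markers were 10609 to 40488 in the lower-score group and 30196 to 81981 in the upper-score group. All 10 tested granulocyte markers were higher, with a median difference of 2.76 (2.26 without M3), but this followed single tumours: their mean was 8.41 in M2 and 4.28 to 5.18 in the rest of the lower-score group, and 9.89 in M3, 7.67 in M4, 5.51 in MT4 and 9.58 in MT2. The granulocyte marker sum ran from 412 to 19415 in the lower-score and from 1877 to 26671 in the upper-score group. Of the T and natural killer cell markers 7 of 18 were tested, the defining Cd3e, Gzmb, Ncr1 and Cd5 were at background in all 9, and the sum was 3208 to 5014 in the lower-score and 1661 to 3669 in the upper-score group. Of the erythroid markers 4 of 11 were tested, 6, Alas2, Klf1 and Gata1 among them, were at background in all 9, and the sum was 19276 to 41851 in the lower-score and 17724 to 51969 in the upper-score group. Fcnb was the 1 granulocyte marker of 14 at background throughout, and of the stroma markers 0 were. The part of these other cells in the leading higher genes was not tested.

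**Figure D3:**
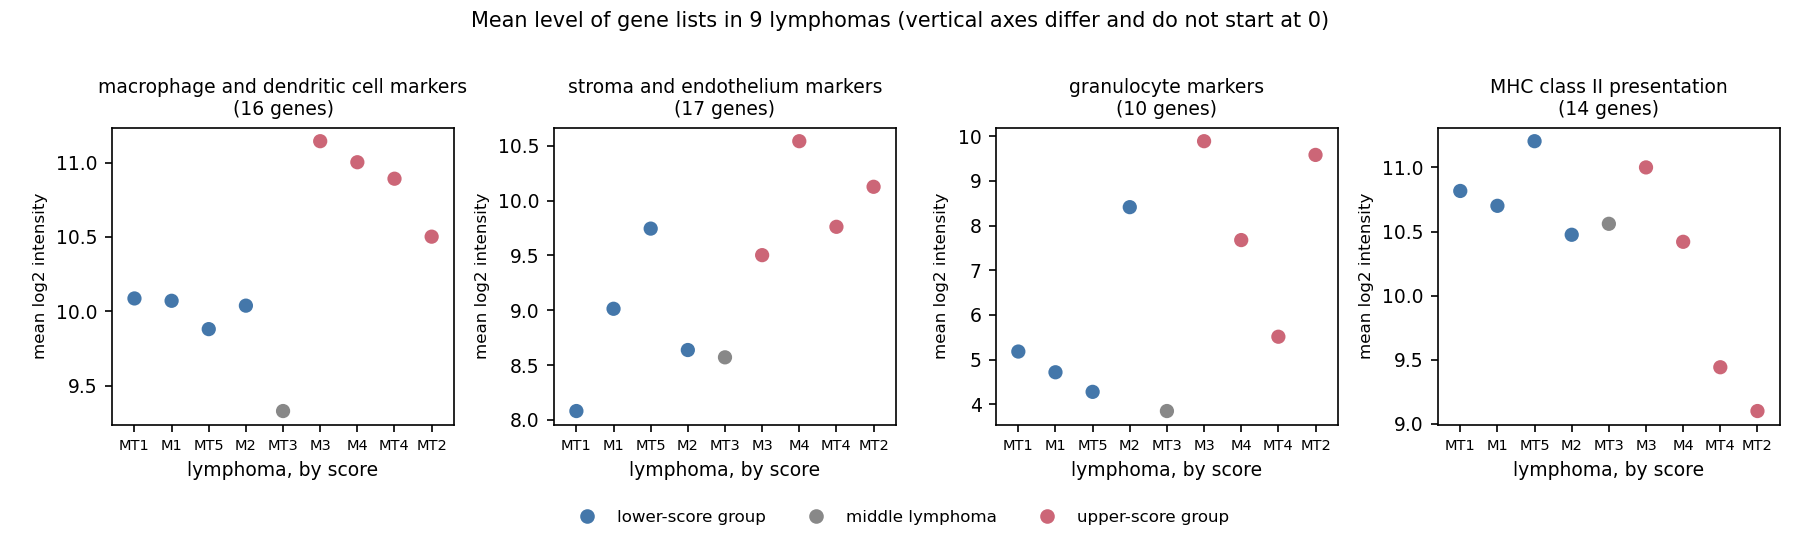
Mean log2 intensity (vertical axes, which differ and do not start at 0) of the tested members of 4 gene lists in each lymphoma (horizontal axis, by rising score); each point is 1 array. Macrophage markers separate the groups (9.88 to 10.09 against 10.50 to 11.14), stroma markers nearly so, granulocyte markers follow M2, M3, M4 and MT2, and the class II list is low in MT4 and MT2.

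The 12 leading lower genes had small differences, from -0.50 to -1.06 for all but Zmat3, and none passed (limma adjusted p of 0.752 or more). Gfer, a sulfhydryl oxidase of mitochondria, read 11.23, 11.55, 11.80 and 11.53, then 10.39 in MT3, and then 10.99, 10.79, 10.71 and 10.88 (difference -0.68, SE 0.15). Zmat3, an RNA-binding protein induced by p53, read 11.19, 8.31, 10.89 and 8.85, then 5.63 in MT3, and then 7.56, 6.37, 7.52 and 4.99. It was high in MT1 and MT5 and lowest in MT2, with a difference of -3.20 (SE 0.84). Adar, which edits adenosine to inosine in RNA, differed by -0.94 (SE 0.24), but its other probe sets overlapped. So did further probe sets of Gfer, Atg16l2, Gpatch4 and Cdc37l1, and 1 each of the higher genes Atpif1 and Serpinf1. Among the higher genes, further probe sets of Sfrp1, Vav3, Lox and Gas6 that were at background in every lymphoma overlapped as well. Atg16l2, an autophagy factor, differed by -0.89 (SE 0.21) although MT3, at 9.91, exceeded all 8. The clock gene Per1 (-0.71, SE 0.21), Noct, nocturnin (-1.06, SE 0.31), the TFIIH subunit gene Gtf2h1 (-0.77, SE 0.18), the Hsp90 cochaperone homologue Cdc37l1 (-0.50, SE 0.14), the sugar transporter Slc50a1 (-0.79, SE 0.22), Gdap2 (-0.56), Gpr89 (-0.52) and Gpatch4 (-0.64) complete the 12. In contrast to the higher genes, MT3 lay within or beyond the upper-score range for 10 of these 12.

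Chromosome 3 held many of the lower genes. Of the 12 leading lower genes 7 lie there, namely Adar, Gdap2, Zmat3, Gpr89, Gpatch4, Slc50a1 and Noct, and so do 28 of the 129 lower genes without overlap, which is 5.51% of the 508 tested genes of chromosome 3 beside 1.27% of all genes. The median deviation of chromosome 3 genes from their own median over the arrays was 0.26 in MT1, 0.25 in M1 and 0.26 in MT5. It was -0.18 in M2, -0.01 in MT3 and -0.21, 0.00, -0.06 and -0.07 in the upper-score group. Thus 3 of the 4 lower-score lymphomas had higher levels across this chromosome than the other 6 lymphomas. The part of this shift in the lower genes of chromosome 3 was not tested beyond the centring that follows. Each array was then centred by chromosome, an alternative chosen after seeing the data. After centring, 12 of the 508 tested genes of chromosome 3 were lower without overlap, beside 130 of all 10171 genes. Of the 12 leading lower genes 7, 3 of them on chromosome 3, still did not overlap. Other chromosomes were shifted in single lymphomas. M3 was at 0.34 on chromosome 12, 0.19 on 14 and 0.32 on 18. There 4.28%, 5.03% and 4.45% of tested genes were higher without overlap, beside 2.18% of all genes. MT5 was at 0.33 on chromosomes 17 and 19, where 2.51% and 2.70% were lower without overlap. The part of these shifts in those counts was not tested.

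Genes of V(D)J recombination and of the precursor stage overlapped between the groups. Of 24 tested members 18 were higher and 6 lower, with a median difference of 0.18, 0 called and 0 without overlap. Without M3 the median was 0.28 with the same counts of 18 and 6, and with groups drawn by Igll1 alone it was -0.20. Without M2 it was -0.03. Rag1, the recombinase subunit that cuts at the recombination signals, read 10.66, 14.76, 14.26 and 3.05, then 15.23 in MT3, and then 13.63, 8.49, 13.39 and 10.59. It was near background in M2 alone, and its highest levels stood in MT3, M1 and MT5, where the surrogate light chain genes were low. Its partner Rag2 read 6.93, 7.76, 9.14 and 2.45, then 10.96 in MT3, and then 8.27, 4.51, 8.18 and 7.31. Dntt, the terminal transferase of early precursors, was at 9.05 in MT4 and between 1.88 and 1.95 in the other 8, so it did not enter the test. Erg, a transcription factor of progenitors, was at 10.66 in MT4 and 11.08 in MT2 and at 3.90 to 6.16 elsewhere. Kit, the stem cell factor receptor, reached 10.73 in MT2 against 4.24 to 7.65 in the others. Erg was therefore high in MT4 and MT2 and low in M4, the third lymphoma with surrogate light chain. Vpreb3, which is not part of the surrogate light chain despite its name, read 12.09 to 12.45 in the lower-score and 11.80 to 13.09 in the upper-score group. The label pre-B-like for the upper group was not borne out by these markers. Lists that bear on the label mature-like for the lower group, given below, leaned its way without a call. Mature surface genes had a median of -0.37 and class II genes of -0.76. The follicular markers Fcer2a and Cr2 were not a property of the lower-score group. The groups are called by their scores here.

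**Figure D4:**
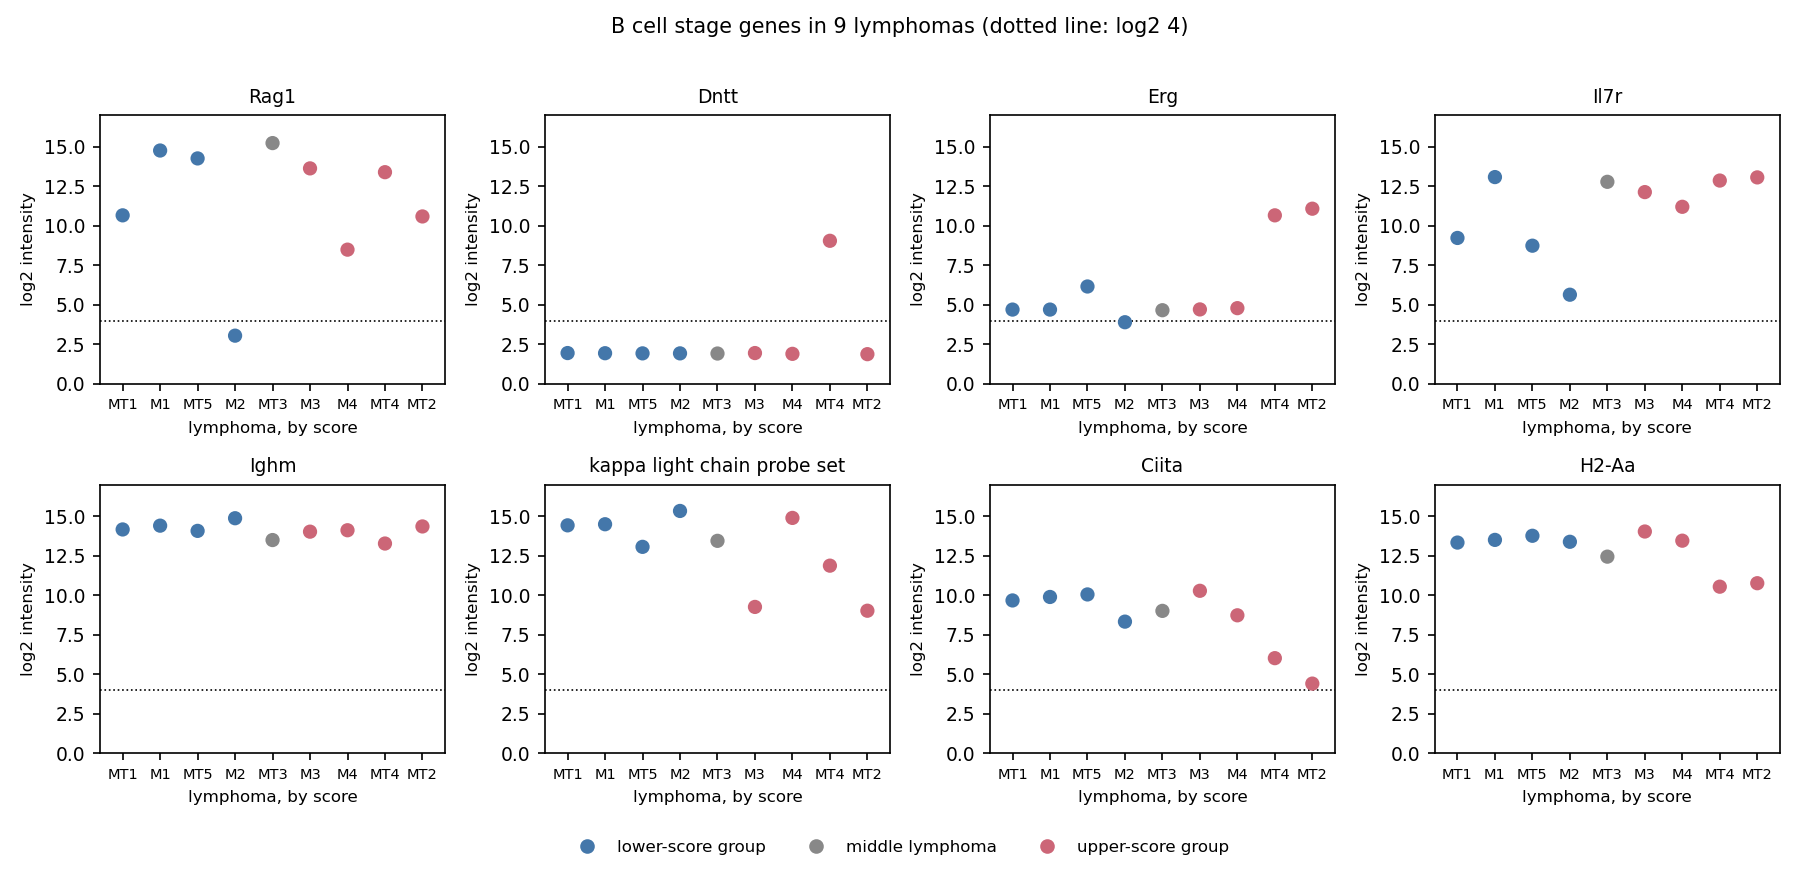
Log2 intensity (vertical axis) of 7 genes and of a probe set annotated to several kappa light chain genes in each of the 9 lymphomas (horizontal axis, by rising score); each point is 1 array, and the dotted line marks log2 4. Rag1 is high in both groups, Dntt is above background in MT4 alone, Erg in MT4 and MT2 is over 10, Ighm is between 13.27 and 14.87, and kappa mRNA is lowest in M3 and MT2.

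Signalling from the interleukin-7 receptor through STAT5 supports precursor B cells. Of 15 tested genes of this axis 11 were higher and 4 lower, with a median of 0.54 and 0 called. The median was 0.90 without M3 and 0.29 without MT2, and 0.03 with all probe sets. Il7r, the receptor itself, read 9.23, 13.08, 8.74 and 5.64, then 12.78 in MT3, and then 12.13, 11.20, 12.86 and 13.06. All upper-score lymphomas were over 11, but so were M1 and MT3 (difference 3.14, SE 1.40, limma adjusted p = 0.787). Socs2, a feedback inhibitor induced by STAT5, was at 12.74 in M4, 11.78 in MT4 and 11.09 in MT2, but also at 11.14 in M2, against 6.81 to 7.82 in the others, M3 included. Cish, another such inhibitor, was at 9.03 in MT2 and at 2.21 to 2.45 elsewhere. MT2 also had the highest levels of Stat5a (11.02), Jak1 (14.33) and the kinase gene Pim1 (12.39). Of the list, 2 of 15 lay wholly below the lower-score group, beside 1.27% of all genes. These were the anti-apoptotic genes Bcl2 at 8.48, 7.15, 8.28 and 3.96 against 9.09 to 9.99 (difference -2.60, SE 0.94), and Mcl1 at 13.51 to 14.01 against 14.14 to 14.27 (difference -0.45, SE 0.14).

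All 9 lymphomas held the μ heavy chain mRNA at a high level. Ighm read 14.16, 14.40, 14.07 and 14.87 in the lower-score group, 13.49 in MT3 and 14.02, 14.11, 13.27 and 14.35 in the upper-score group. Kappa mRNA, which marks cells that transcribe a conventional light chain gene, was read through a probe set annotated to several kappa genes, at 14.42, 14.49, 13.06 and 15.33, then 13.44 in MT3, and then 9.26, 14.89, 11.87 and 9.02. It was high in the lower-score group and lowest in M3 and MT2, yet M4 held both surrogate light chain and kappa mRNA. M3 is thus a tumour in which both the surrogate light chain genes and kappa were low. The 3 probe sets of Iglv1, a lambda variable gene, disagreed: M1 was high on each (11.86 to 14.16), while M2 ran from 2.52 to 12.61 and M4 from background to 9.70. Igha, the α heavy chain, stood at 15.90 in M4 and at 3.68 to 10.19 elsewhere.

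Transcription factors of the B lineage had differences in both directions, with 19 of 34 tested members higher, 15 lower and a median of 0.08 (0.03 without M3 and -0.05 without MT2). Ebf1 read 10.80 to 11.58 in the lower-score group and 11.24 to 12.08 in the upper-score group, and Pax5 8.58 to 9.65 and 8.32 to 8.91. Ikzf1, which encodes Ikaros, differed by -0.13 (SE 0.14) and Ikzf3, Aiolos, by -0.57 (SE 0.38). The largest positive difference was that of Ikzf2, Helios (2.21, SE 1.41), which came from 11.20 in MT2 and 6.62 in M4 against 4.44 to 4.49 in the other 7. Bach2, a repressor of plasma cell fate, had the largest negative difference (-1.47, SE 0.66), with 9.64 in MT2. Irf4, which acts at the switch from surrogate to conventional light chain, read 11.08, 12.51, 11.86 and 10.07, then 12.59 in MT3, and then 10.68, 11.07, 11.09 and 8.39. Its lowest level was in MT2, the lymphoma with the most surrogate light chain.

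Genes of the antigen receptor and its proximal signals were split in the same way, with 14 of 31 higher, 17 lower and a median of -0.03. Without M3, 16 were higher and 15 lower, with a median of 0.05. Cd79a and Cd79b, the signalling chains that serve both the pre-B cell receptor and the B cell receptor, differed by -0.17 (SE 0.20) and -0.03 (SE 0.24). Of the 31, 2 lay above the lower-score group without overlap, beside 2.18% of all genes: Vav3 and the adaptor Lcp2, which lay between 7.19 and 9.13 in the lower-score group, at 9.51 in MT3, and then at 9.33, 9.40, 10.41 and 10.73 (difference 1.62, SE 0.52). Vav3 passed the filter only with its upper-score values counted. The adaptor gene Lat stood at 8.01, 9.05 and 8.99 in M4, MT4 and MT2, above the 5.28 to 6.83 of the lower-score group, but at 4.07 in M3. Blk, a Src family kinase of B cells, had the largest negative difference (-1.89, SE 1.06), from 7.81 to 11.76 down to 6.01 to 9.74.

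Surface and homing genes of mature B cells had lower means in more members than not, with 22 of 36 lower, 14 higher and a median of -0.37; without M3, 26 were lower and 10 higher, with a median of -0.57. None passed. Fcrla, an Fc receptor-like protein of B cells, was the one member of 36 below without overlap, beside 1.27% of all genes, at 10.64, 11.29, 11.21 and 4.78 against 11.46 to 12.30. Ly6d, a surface marker of B-lineage commitment, had the largest negative difference (-4.21, SE 1.47), with 3.74 in M3 and 5.89 in MT2. MT2 stood apart in this list: Cd22 (6.99 against 11.91 or more elsewhere) and Ccr7 (3.28 against 9.26 or more) were far below their levels in all other lymphomas. The follicular markers were not a property of the lower-score group: Fcer2a (CD23) was at 8.05 in MT5 and at 4.52 to 5.83 elsewhere, and Cr2 (CD21) read 10.43 in MT1 but 2.86 in M1 and 3.25 in M2. Ms4a1, CD20, overlapped widely, from 10.08 in M1 to 14.47 in M2.

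Genes of MHC class II presentation had lower means in the upper-score group for 13 of 14 members, with a median of -0.76 (-1.20 without M3) and 0 called. The transactivator Ciita, which switches on the class II genes, read 9.67, 9.89, 10.05 and 8.33, then 9.01 in MT3, and then 10.28, 8.73, 6.02 and 4.41. It was low in MT4 and MT2, at the level of the lower-score group in M4, and highest of all in M3. H2-Aa, the class II α chain, read 13.33, 13.50, 13.76 and 13.38, then 12.44 in MT3, and then 14.03, 13.45, 10.54 and 10.76. Cd74, the invariant chain, was lowest in MT2 at 10.80, next lowest in MT4, and at 13.52 or more in the other 7. The differences of Ciita, H2-Aa and Cd74 thus lay in MT4 and MT2, the lymphomas that also held Erg. M4 was low for other members. H2-DMb2 read 9.93 in M4 against 11.19 to 12.60 in the lower-score group. H2-Ob read 10.05 in M4 but 12.56 in MT2, against 11.08 to 13.59. The list mean was 10.48 to 11.21 in the lower-score group, 11.00 in M3, 10.42 in M4, 9.44 in MT4 and 9.10 in MT2. Macrophages express class II genes too, and the macrophage list mean was higher in the upper-score group, 10.89 in MT4 and 10.50 in MT2 included. The part of macrophages in the class II values was not tested.

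Cell division genes had higher means in most members, and none passed. Of 28 DNA replication genes 25 were higher, with a median of 0.25 (0.40 without M3), and of 28 mitosis genes 20, with a median of 0.19 (0.31 without M3). M1 weighed on both, with a replication list mean of 10.87 against 11.76 to 11.86 in the rest of the lower-score group and 11.47 to 12.07 in the upper-score group. Without M1 the medians were 0.05 and -0.07, so the direction of the mitosis list rests on that tumour. Pole2, a subunit of DNA polymerase ε, was the 1 replication gene of 28 without overlap, beside 2.18% of all genes. It lay at 10.68 to 11.10 in the upper-score group and 8.37 to 10.62 in the lower. Ccnd1, cyclin D1, was at 8.03 in MT2 and 8.86 in M1 and at 12.22 or more in the other 7, and Ccnd3, the D-type cyclin of dividing pre-B cells, was highest in MT2 (12.64). Ccnd2 was highest in MT3 (12.31) and M2 (10.29). Of the 18 tested cyclins, cyclin-dependent kinases and inhibitors 14 were higher, with a median of 0.25 (0.38 without M3).

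Myc itself read 14.14, 14.21, 14.01 and 14.02, then 14.03 in MT3, and then 13.60, 13.84, 14.15 and 13.78 (difference -0.25, SE 0.15). Of 28 genes of the MYC network and MYC-activated genes 21 were lower, with a median of -0.09 (-0.06 without M3), and with groups by Igll1 alone the median was above 0. Wdr43, a factor of ribosome biogenesis, was the 1 member of 28 below without overlap, beside 1.27% of all genes. Zfp36, the gene of TTP, differed by -0.28 (SE 0.26), and the 8 tested genes of AU-rich element binders had a median of -0.01 (0.05 without M3). Of 15 genes of the ARF and p53 axis 10 were lower, with a median of -0.22 (-0.33 without M3 and -0.10 without MT5). Zmat3 was the 1 of 15 without overlap, beside 1.27% of all genes. Cdkn2a, which encodes ARF and p16, was high in M1 (12.24), MT5 (9.65) and MT3 (12.32), at background in MT1 (2.62) and M2 (2.60), and at 4.46 to 6.94 in the upper-score group. In the BCL2 family 7 of 12 were lower, with a median of -0.12 (-0.30 without M3 and 0.02 without MT2); beside Bcl2 and Mcl1, the member with the largest positive difference was Bok (1.97, SE 0.92), which read 4.88 in M4 and 8.09 to 8.89 in the other upper-score lymphomas.

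Of 19 NF-kB genes 14 were lower, with a median of -0.23 (-0.38 without MT5 and -0.07 without M1). Relb had the largest negative difference (-1.16, SE 0.85) and the response gene Ier3 the largest positive one (1.22, SE 0.52). Interferon response genes had 10 of 16 higher and a median of 0.11, which was 0.35 without M3 and -0.47 without M1. Immediate-early genes had 8 of 15 higher and a median of 0.05, and 7 higher with a median of -0.04 without M3. Among 7 germinal centre genes Bcl6 differed by -0.46 (SE 0.29), and among 9 plasma cell genes Fkbp11 by -1.58 (SE 0.73), or -0.96 without M3. The plasma cell list had a median of -0.10, and of 0.43 without M3. The median of the germinal centre list was 0.07 and turned to -0.06 after quantile normalisation and to -0.09 without M1, and was 0.22 without M3. In each of these lists 0 members were called or lay apart without overlap. The same held for 7 T and natural killer cell markers, with a median of -0.14 (0.03 without M3 and -0.96 without M4), and for 4 erythroid markers, with 0.12, which turned sign after quantile normalisation. It also held for 4 immunoglobulin constant region genes, with 0.01 (0.28 without M3, -1.20 without M4 and 0.58 without MT2), and for 4 sex-linked genes, with -0.17 (0.84 without M3). Xist was at 14.15 to 14.63 in MT5, M2, M3 and MT2 and at 2.65 to 2.82 in the others. The Y-linked Eif2s3y was at 3.39 to 3.77 and at 12.12 to 12.49, respectively. Each group held lymphomas of both patterns, and leaving out M3 alters that balance.

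Neighbours of the surrogate light chain genes on chromosome 16 were examined after the values were seen, as the nearest 3 tested genes on either side of each. Top3b, a topoisomerase gene that lies between Vpreb1 and Vpreb2 next to Vpreb1, read 8.43, 8.63, 8.75 and 8.56, then 9.12 in MT3, and then 8.59, 10.10, 9.59 and 10.15. Prodh, the proline dehydrogenase gene beyond Vpreb2, read 8.67, 8.86, 8.91 and 8.95, then 8.04 in MT3, and then 8.49, 10.31, 10.83 and 11.38. Both were higher in M4, MT4 and MT2 than in all of the other 6, M3 among them. Of the 12 neighbours Ppm1f and Dgcr2 kept this order too, by smaller margins (9.47 or more against 9.39 or less, and 10.05 or more against 9.93 or less), and 8 did not. Without M3 the differences of Prodh and Top3b were 2.00 and 1.35, and both are among the 12 genes with the smallest p in that comparison (limma adjusted p of 0.153 for each). M4 had higher values across chromosome 16 as a whole, with a median deviation of 0.50, while MT4 and MT2 were at 0.00. The part of this shift in the values of M4 was not tested.

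**Figure D5:**
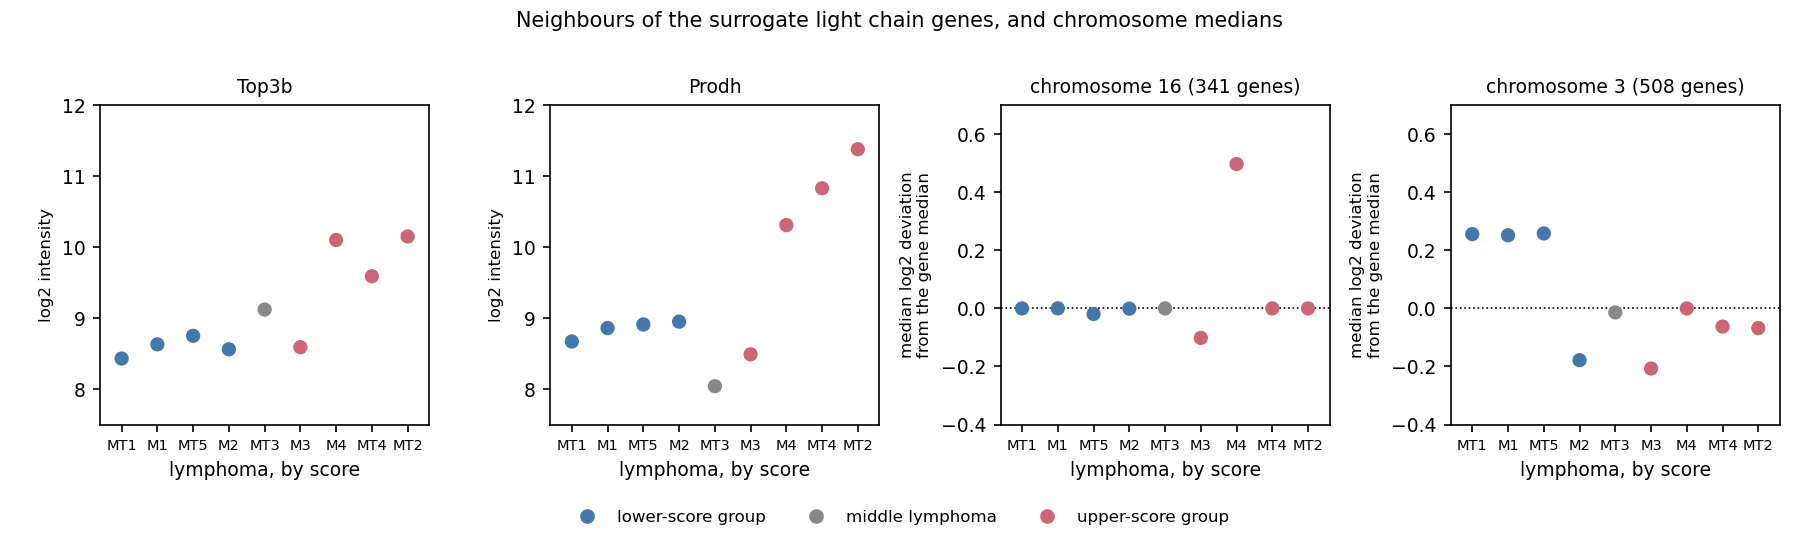
Left, log2 intensity (vertical axis from 7.5) of Top3b and Prodh in each lymphoma (horizontal axis, by rising score); right, median deviation of the genes of chromosome 16 and chromosome 3 from their own medians over 9 arrays. Top3b and Prodh are highest in M4, MT4 and MT2, chromosome 16 is high in M4, and chromosome 3 is high in MT1, M1 and MT5.

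M3 lay with the lower-score group for many genes that were chosen without it. Of the 575 higher genes that separated M4, MT4 and MT2 from the lower-score group, M3 lay within or below the lower-score range for 353, between the ranges for 82 and with the other 3 for 140. Of the 364 lower genes it lay within or above the lower-score range for 235. These genes were picked with M3 left out, so part of this follows from the choice. Leaving out another lymphoma also gave many such genes, 473 higher and 454 lower without M2, and 444 and 343 without M4. Beside Prodh and Top3b, examples of genes low in M3 and chosen after the values were seen are Ccn3, a matricellular protein (4.44 in M3, 6.45 to 8.03 in the other 3 and 3.55 to 4.34 in the lower-score group), and Fcgrt, the neonatal Fc receptor (7.19 in M3, 8.65 to 9.69 in the other 3 and below 7.19 in the lower-score group). Susd3 was lower in M4, MT4 and MT2 (7.71, 6.29 and 6.23) than in M3 (9.16), MT3 (9.75) and the lower-score group (9.10 to 10.05). A limma test of the interaction with genotype, with 2 tumours of each genotype in each group, called 0 of 10171 genes. The lowest adjusted p was 0.117, and 696 genes had an unadjusted p under 0.05, which does not show that the genotypes act alike.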

How the data were processed

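Expression was measured in 9 lymphomas with 1 array each. The authors deposited a table of linear intensities, normalised with GCRMA per the submitters' processing notes (version not given in the sources used here). Intensities were taken to log2 with no pseudocount. Of 45037 probe sets, 34945 had 1 gene symbol, 932 several and 9160 none listed; those with 1 gave 18193 genes, with the probe set of highest mean standing for each. Genes over log2 4 (intensity 16) in at least 4 of 9 arrays entered lmFit and eBayes of limma (version 3.58.1, R 4.3.3), without Vpreb1 and Igll1, and p-values were adjusted by Benjamini-Hochberg at 0.05. The pipeline was tested on simulated data. "At background" means at or under log2 4.

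The members, gene lists and tests were chosen with earlier results of these data known. Genes were named as the 12 in each direction with the smallest p among those whose values did not overlap (sex-linked genes left out), and from 25 lists as the members with the largest difference in each direction, those without overlap and set stage markers. All other genes named as examples were chosen after their values were seen. Alternatives covered the filter, probe sets, scaling, pseudocount, covariates, group limits and each lymphoma left out. A hybridisation batch was not analysed here.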

Additional observations from a re-analysis of the deposited data

Results flagged for a closer look

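In 21 of 182 groups of 4 values checked, 1 lymphoma lay far from the other 3 by Dixon's test. For unselected genes chance gives about 1 in 20, or 9.1. Many of these genes were chosen from the same values, so 21 and 9.1 cannot be compared directly. Values are log2 intensities.

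Among the leading genes, Insm1 read 2.56 in M1 against 2.36 to 2.39 in the rest of the lower-score group, all of them at background. Ccn2 read 8.07 in MT5 against 6.15 to 6.38. Serpinf1 read 9.19 in M3 against 9.83 to 9.93 in the rest of the upper-score group. Atpif1 read 12.28 in MT1 against 11.86 to 11.92, and Atg16l2 read 9.53 in M1 against 8.74 to 8.82.

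M1 had 5.49 for the cell cycle inhibitor Cdkn1a against 8.17 to 8.41 in the rest of its group, 9.78 for Cdkn1c against 3.96 to 4.06, and 8.86 for Ccnd1 against 12.32 to 12.61. M2 had 9.75 for Fkbp11 against 8.02 to 8.11, 10.20 for Zfp36 against 10.79 to 10.85, 9.39 for Pecam1 against 10.46 to 10.53, and 9.65 for Pax5 against 8.58 to 8.66. MT5 had 7.41 for Bcl6 against 6.31 to 6.43, 6.69 for Thy1 against 4.74 to 5.03, and 8.05 for Fcer2a against 4.60 to 5.11.

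In the upper-score group, MT2 had 8.39 for Irf4 against 10.68 to 11.09 and 8.03 for Ccnd1 against 12.22 to 12.83. MT4 had 9.05 for Dntt against 1.88 to 1.95 and 13.92 for Ms4a1 against 11.00 to 11.25. M4 had 7.94 for Irf7 against 3.71 to 4.28, and M3 had 9.08 for Mrc1 against 10.58 to 10.87.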

How the results depend on the processing

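The single call, Insm1, held in 11 of 28 alternatives, of which grouping by Vpreb1 alone gives the same groups and could not differ, with differences of 3.59 to 6.63 over all of them and limma adjusted p of 5.98e-04 to 0.870. By limma, 0 genes were called higher with no filter (1007 at an unadjusted p under 0.05), the mean of probe sets (574), a pseudocount of 16 (621), genotype as a covariate (650), MT3 added to the upper-score group (489), the 3 highest against the 3 lowest (1012), and, chosen after seeing the data, the 3 lymphomas with Vpreb1 over 8 against the other 6 (929). Calls were 2 with all probe sets, 5 with MT3 added to the lower-score group, 8 higher and 2 lower with the score as a continuous covariate, and 11 higher and 6 lower with groups by Igll1 alone. With 1 lymphoma left out, 0 to 2 were called higher and 0 lower: 0 without MT1, M1, M2, M3 or MT2, 1 without MT4, and 2 without MT5 or M4.

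Counts without overlap, 222 higher and 129 lower, became 197 lower with no filter, 350 and 261 with all probe sets, 256 lower after quantile normalisation, 272 lower after median centring, 82 higher with MT3 added above, 51 lower with MT3 added below, 1144 and 836 for 3 against 3, and 448 and 364 by Igll1 alone. With 1 lymphoma left out they ran from 307 (without MT2) to 575 (without M3) higher and from 186 (without MT2) to 454 (without M2) lower, where fewer samples overlap less by construction. The labels give replicate numbers in both genotypes and do not say whether equal numbers mean a pairing. Deviations of same-numbered lymphomas correlated at -0.09 to 0.19, 2 of 4 best with their own number, which does not settle it. A replicate block gave 0 calls (1013 unadjusted, lowest limma adjusted p = 0.237). Of 2497 values of named genes over the alternatives, 2366 kept their call or moved by less than the replicate spread and 88 had the other sign, none of them a called value. Of 669 values of the 24 leading genes, whose direction their choice largely fixes, 64 moved by more and 17 lost the call. Of 672 list medians 77 had the other sign, those of the germinal centre, erythroid, TTP and constant region lists under scaling among them. Other causes of these changes were not tested.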
